A study of Mus musculus with 40 samples.

Results

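Transcripts of 9 neuromuscular junction (NMJ) organisers were followed in the extensor digitorum longus (EDL), which is made up mostly of fast fibers and lies in the mouse hindlimb. The 9 genes were chosen by name from 22844 genes in the deposited count table: the ligand gene Agrn, the receptor genes Lrp4 and Musk, the adaptor gene Dok7, the scaffold gene Rapsn, the cholinesterase gene Ache with its collagen tail gene Colq, the ETS transcription factor gene Etv5 and the adhesion molecule gene Ncam1. All 9 were among the 13543 genes tested, and the lowest count of any of them in any library was 56.

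Muscle fibers of TSCmKO mice have lost Tsc1, whose product restrains the kinase complex mTORC1. The study used them as a muscle fiber-driven model of sarcopenia, the loss of muscle with age, with a severe phenotype at 9 months and little or none at 3 months. The control groups (CON), labelled Tsc1fl/fl, came from the same litters and lacked the Cre transgene. The labels give strain Tsc1tm1Djk/J for every mouse, and the Cre driver is not given in the sources used here. Groups were 3mCON, 3mTSCmKO, 9mCON and 9mTSCmKO, aged 3 or 9 months and injected intraperitoneally with vehicle for 3 days, and the same 4 groups with rapamycin, an mTORC1 inhibitor, in place of vehicle (3mCON+RM, 3mTSCmKO+RM, 9mCON+RM and 9mTSCmKO+RM). The labels give 4 mg of rapamycin per kg, the study text a higher daily dose, so the dose is uncertain. Each group held 5 muscles, 1 per mouse.

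At the NMJ, agrin released by the motor nerve binds LRP4, which activates the receptor tyrosine kinase MuSK on the muscle fiber. DOK7 sustains MuSK activity, and rapsyn, the product of Rapsn, clusters acetylcholine receptors (AChRs) beneath the nerve ending. Acetylcholinesterase is held in the synaptic cleft by ColQ, Etv5 takes part in transcription from the few nuclei under the synapse, and NCAM, restricted to the synapse in innervated adult fibers, appears along the fiber after denervation. In bulk muscle, fewer cells of a type and less RNA per cell cannot be told apart, and synaptic and extrasynaptic transcripts are summed.

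The upstream sequences of the receptor, adaptor and ligand genes are shown because the group means of Musk and Dok7 ran alike and those of Agrn ran the other way. That likeness covers 8 group means and carries no p, and whether these sequences bear on it was not tested. They are the 250 bases before the first RefSeq start site of each gene (GRCm38.p6, written 5′ to 3′ on the gene's strand), with matches to the E-box CANNTG, the motif read by myogenic factors, in capitals. The windows are chr4:58285712-58285961 on the plus strand for Musk, chr5:35056516-35056765 on the plus strand for Dok7 and chr4:156197489-156197738 on the minus strand for Agrn. The last 2 bases of the Musk window lie in its first GENCODE exon.
Musk: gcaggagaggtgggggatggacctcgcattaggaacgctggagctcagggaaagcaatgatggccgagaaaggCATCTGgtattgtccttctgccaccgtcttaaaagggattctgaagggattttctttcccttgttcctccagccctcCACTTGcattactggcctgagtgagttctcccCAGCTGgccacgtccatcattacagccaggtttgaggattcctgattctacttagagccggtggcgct
Dok7: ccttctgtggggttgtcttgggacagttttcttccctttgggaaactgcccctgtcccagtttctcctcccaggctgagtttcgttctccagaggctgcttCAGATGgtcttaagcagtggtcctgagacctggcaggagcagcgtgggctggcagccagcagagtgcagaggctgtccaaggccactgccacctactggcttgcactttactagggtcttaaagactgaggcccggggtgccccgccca
Agrn: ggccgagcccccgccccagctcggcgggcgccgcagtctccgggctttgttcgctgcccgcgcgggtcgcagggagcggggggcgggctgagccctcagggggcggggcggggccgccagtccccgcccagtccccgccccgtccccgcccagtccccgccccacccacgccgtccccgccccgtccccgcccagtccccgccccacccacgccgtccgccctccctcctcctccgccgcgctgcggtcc
Musk holds 3 E-box matches, Dok7 1 and Agrn 0 in these windows. In the windows of a second RefSeq start site it is the other way round, with 0 in Dok7 and 1 in Agrn. Of 32851 RefSeq windows of this length, 66.2% hold at least 1 match and 12.2% at least 3. The N-box CCGGAA, an ETS factor site described in synaptic promoters and searched on both strands, is in 12% of all windows and in 0 of the 8 windows of Musk, Dok7, Agrn, Ache and Etv5, the 5 of 9 members with an entry. A missing match says only that these letters are not in these windows.

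In GENCODE M21 (GRCm38) the members lie at chr4:156165290-156197488 (Agrn, minus strand), chr2:91457511-91513779 (Lrp4, plus), chr4:58285960-58374303 (Musk, plus), chr5:35056766-35087839 (Dok7, plus), chr2:91035620-91045729 (Rapsn, plus), chr5:137287519-137294466 (Ache, plus), chr14:31523082-31591343 (Colq, minus), chr16:22381309-22439719 (Etv5, minus) and chr9:49502136-49798925 (Ncam1, minus), each a protein-coding gene. Colq shares 38439 bases of its locus with Gm49387, a protein-coding gene model on the same strand that is not listed in the count table, so reads of that model could have counted as Colq.

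Libraries held 8883870 to 35224669 counts, and replicates correlated with r = 0.934 to 0.992 on the log scale. No pair of replicates agreed within counting noise. Tsc1 was at most 35.8 CPM in TSCmKO libraries and at least 51.3 CPM in CON libraries. Mean insert sizes ran from 175 to 239 nt in the younger libraries and from 223 to 308 nt in the older ones, so age and library preparation cannot be told apart. No insert size is given for 9mTSCmKO+RM replicate 5, and fits with insert size as a term leave that library out. One library, 9mTSCmKO replicate 1, correlated least with its own group. Values of single genes are given in CPM, counts relative to the library total scaled by TMM factors and not divided by transcript length, and differences are log2 differences from a common edgeR fit with a threshold of 0.05 on the Benjamini-Hochberg adjusted p.

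Per transcript length, Ache had the highest mean and Musk the lowest in 3mCON and 9mCON. In 3mCON the authors' TPM values were 41.3 ± 7.17 for Ache, 29.4 ± 4.09 for Rapsn, 14.4 ± 3.11 for Dok7, 10.9 ± 1.10 for Etv5 and 8.85 ± 0.424 for Agrn (SD, n = 5). Colq followed at 7.99 ± 1.25, Ncam1 at 6.42 ± 0.625, Lrp4 at 6.24 ± 0.796 and Musk at 5.61 ± 2.99 TPM. Ncam1, Lrp4 and Musk differed by less than the SD of Musk. The order in 9mCON was the same except that Agrn (8.30 ± 2.35 TPM) and Etv5 (8.12 ± 2.84 TPM) changed places.

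**Figure D1:**
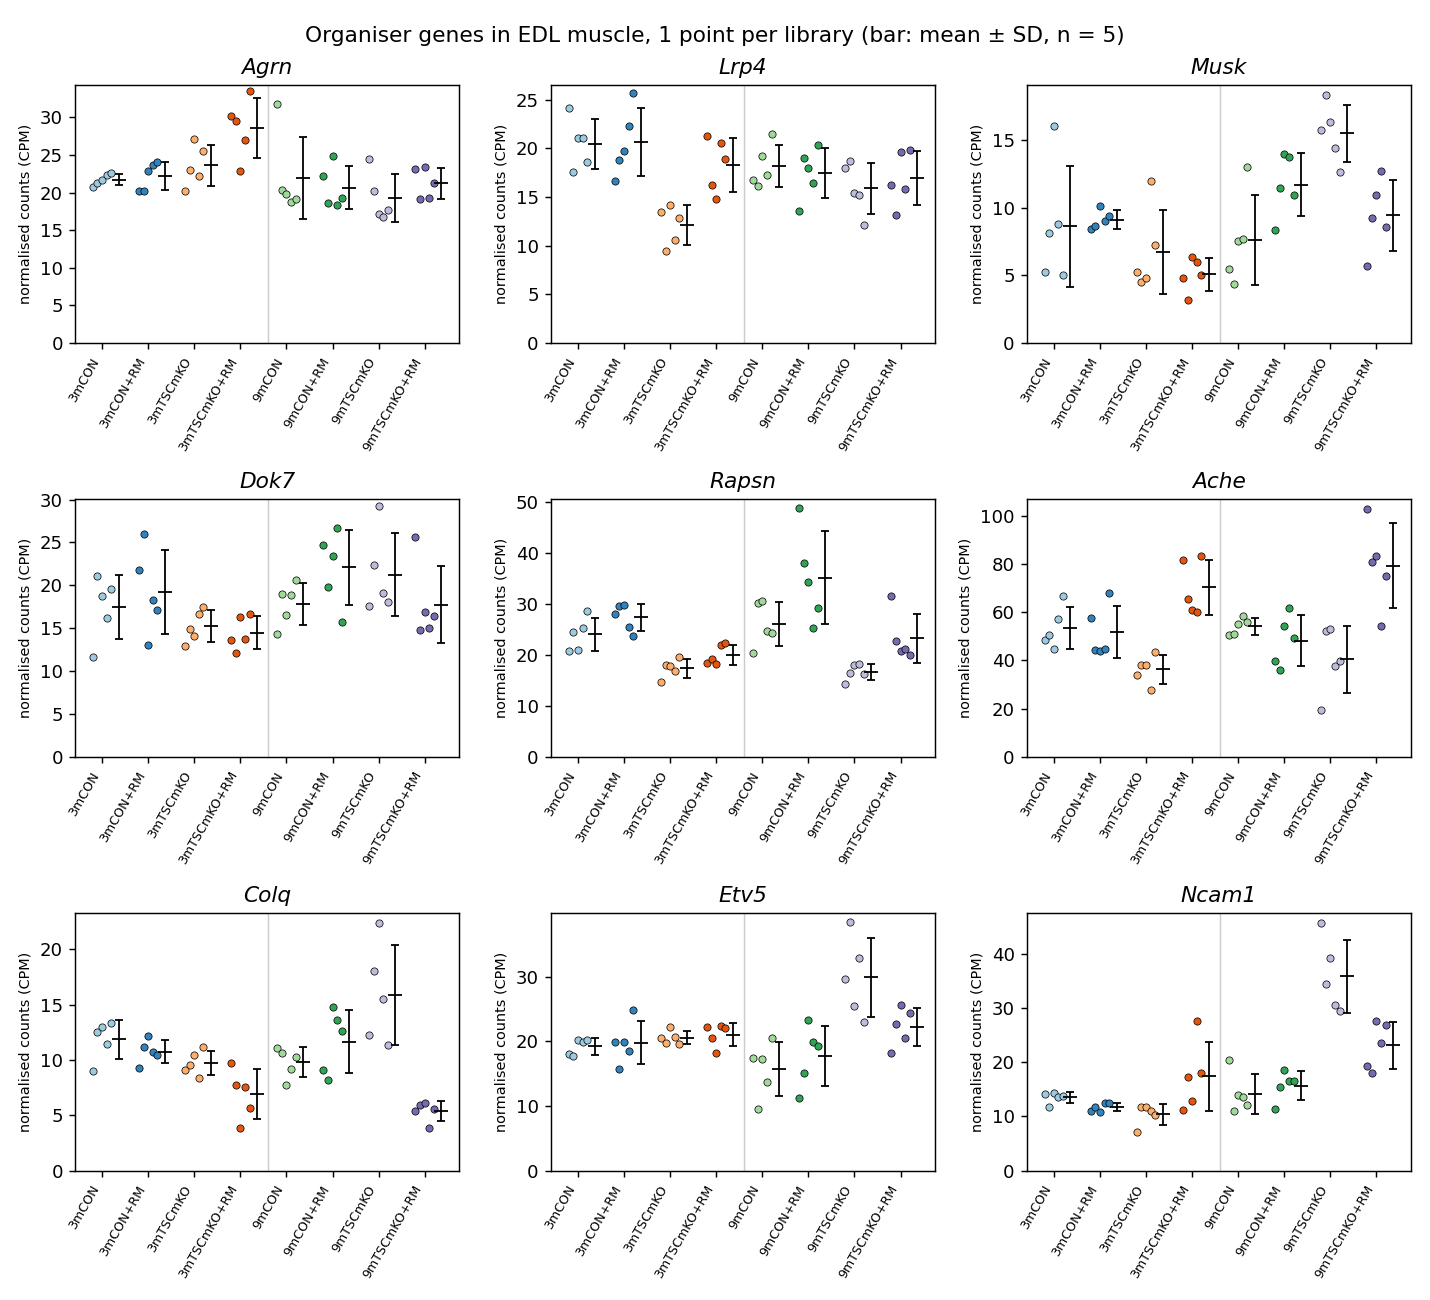
Levels of the 9 organiser genes in each library (y axis, TMM-scaled CPM, starting at 0) over the 8 groups (x axis), 1 point per library in replicate order and mean ± SD beside them. In 9mTSCmKO every Ncam1 value is above every 9mCON value, and in 9mTSCmKO+RM every Colq value is below every 9mTSCmKO value.

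At 9 months, loss of Tsc1 moved the organisers in both directions. Musk, Colq, Etv5 and Ncam1 rose and Rapsn fell in 9mTSCmKO against 9mCON, and Agrn, Lrp4, Dok7 and Ache did not pass the test. These were 5 of 9 members, where 37.9% of all genes tested passed. By direction, 4 members rose (19.1% of all genes did) and 1 fell (18.9%). The median log2 difference was 0.25 over the members and -0.02 over all genes. The 5 calls held in each of the 10 fits that left out 1 library and in each of the other alternatives.

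At 3 months Lrp4, Rapsn and Ache fell in 3mTSCmKO against 3mCON and no member rose, so 3 of 9 members passed, against 19.8% of all genes (8.32% lower). The median log2 difference was -0.35 over the members and -0.02 over all genes. The change of the genotype effect between the ages passed the test for Musk, Colq, Etv5 and Ncam1, 4 of 9 members against 4.94% of all genes (3.01% higher, 1.93% lower), each with a higher effect at 9 months.

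Rapamycin for 3 days moved 6 of 9 members in 9mTSCmKO, against 32.6% of all genes. Ache and Rapsn rose (15.8% of all genes did), and Musk, Colq, Etv5 and Ncam1 fell (16.8%). In 3mTSCmKO, Lrp4, Ache and Ncam1 rose and none fell, 3 of 9 against 23.6% of all genes (10.6% higher, 13% lower). In control muscle only Rapsn passed at 9 months, 1 of 9 against 11.8% of all genes (5.03% higher, 6.82% lower). At 3 months 0 of 9 passed in edgeR and 0 in DESeq2, 0 had an unadjusted p under 0.05, and 0.679% of all genes passed there (0.362% higher, 0.318% lower).

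**Figure D2:**
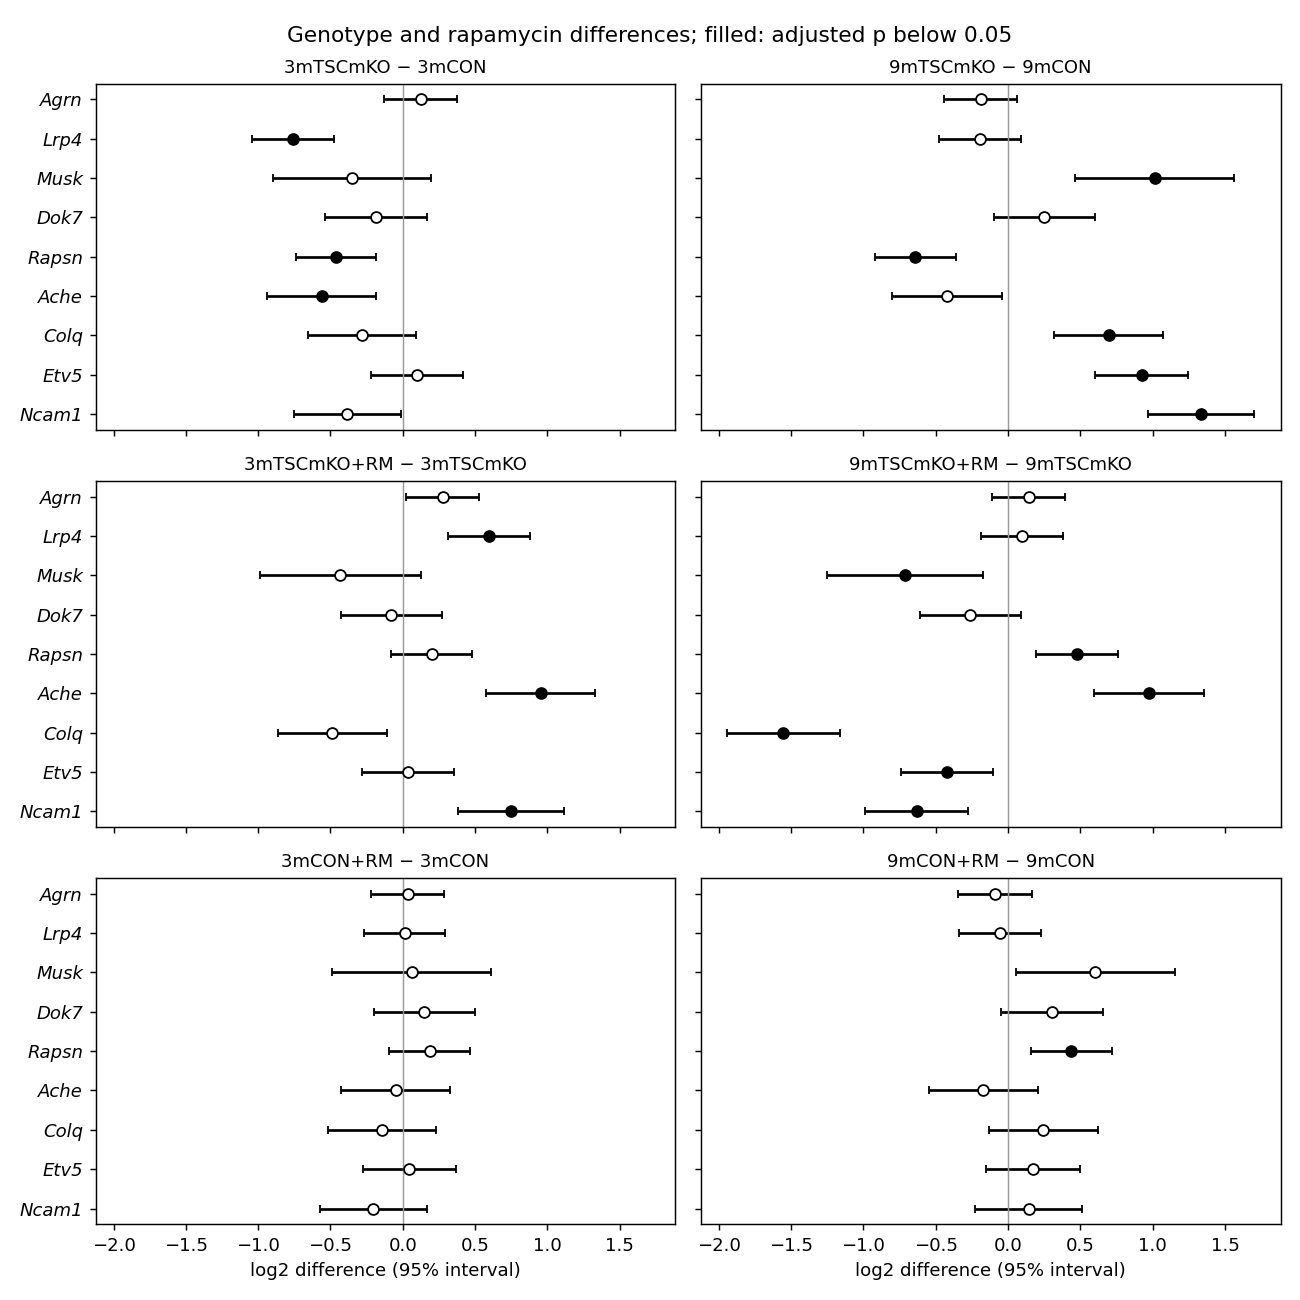
Log2 differences with 95% intervals (x axis) of the 9 organisers (y axis) for 2 genotype and 4 rapamycin comparisons. Filled points passed the adjusted threshold: 5 at 9 months and 3 at 3 months by genotype, 6 and 3 by rapamycin in TSCmKO, and 1 and 0 by rapamycin in CON.

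The effect of rapamycin differed between genotypes for Musk, Ache and Colq at 9 months, 3 of 9 members against 4.87% of all genes (2.56% higher, 2.31% lower), and for Ache and Ncam1 at 3 months, 2 of 9 against 3.45% (1.36% higher, 2.09% lower). Under rapamycin, TSCmKO still differed from CON. At 9 months Ache and Ncam1 were higher and Rapsn and Colq lower in 9mTSCmKO+RM than in 9mCON+RM, 4 of 9 members against 20.6% of all genes (11.3% higher, 9.33% lower). At 3 months Ncam1 was higher and Musk, Rapsn and Colq lower, 4 of 9 against 10% (5.67% higher, 4.36% lower). Leaving out 1 library gave 0 to 3 called members in this comparison, and each of the 4 was lost in at least 1 of those fits. Without 3mTSCmKO+RM replicate 3, Agrn is among the members called. These comparisons share groups with those above and are not independent of them.

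Between 3 and 9 months 0 of 9 members passed in vehicle-treated CON in edgeR and 0 in DESeq2, with 0 at an unadjusted p under 0.05, where 1.02% of all genes passed. In vehicle-treated TSCmKO, Musk, Lrp4, Dok7, Colq, Etv5 and Ncam1 rose, 6 of 9 members against 37.4% of all genes (19.1% higher). With insert size as a term, only Ncam1 of the 9 still passed, at a log2 difference of 1.39 (adjusted p = 0.000324), and 12.6% of all genes did. In the same comparison of TSCmKO muscles, 8 of 10 fibroblast and tendon markers fell and 1 rose (median -1.64), where 18.3% of all genes fell, and their sum was 671 to 1371 TPM in 3mTSCmKO and 291 to 702 TPM in 9mTSCmKO. All 5 adipocyte markers fell (median -2.61; sums of 39.3 to 219 and 7.89 to 25.2 TPM), as did 3 of 6 endothelial markers (187 to 207 and 114 to 211 TPM). The part of these cells in the members' values was not tested.

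Agrn, the ligand gene, which motor neurons and muscle fibers both express, was 20.7, 21.3, 21.6, 22.3 and 22.6 CPM in 3mCON and 20.2, 23.0, 27.1, 22.2 and 25.6 CPM in 3mTSCmKO. It was 31.7, 20.3, 19.8, 18.8 and 19.2 CPM in 9mCON and 24.4, 20.2, 17.2, 16.8 and 17.7 CPM in 9mTSCmKO. The groups overlapped at both ages, and replicate 1 of 9mCON stood well above the rest of its group. These are levels in RNA of the whole muscle, and the cells that Agrn transcripts came from were not tested. The genotype difference was 0.12 ± 0.12 (SE) at 3 months (95% interval -0.13 to 0.38, adjusted p = 0.542) and -0.19 ± 0.13 at 9 months (-0.44 to 0.06, adjusted p = 0.237). Agrn was highest in 3mTSCmKO+RM, at 30.2, 29.5, 22.9, 26.9 and 33.4 CPM, and lowest in 9mTSCmKO, a ratio of group means of 1.49. It passed the test in none of the planned comparisons. In 3mTSCmKO+RM against 3mCON+RM its difference of 0.36 ± 0.12 had an adjusted p of 0.0556 and passed in 4 alternatives (adjusted p = 0.0159 to 0.0499) and without 3mTSCmKO+RM replicate 3 (0.0257). With rapamycin in 3mTSCmKO its difference of 0.27 (adjusted p = 0.106) passed without that same library (0.34, adjusted p = 0.0486) and with limma on log2(TPM + 1) (0.0476). From 3mTSCmKO to 9mTSCmKO its difference of -0.30 (adjusted p = 0.0586) passed without 3mTSCmKO replicate 1 (0.0472), without 9mTSCmKO replicate 1 (0.0200) and in 3 other alternatives (0.0233 to 0.0492).

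Lrp4, the gene of the receptor that agrin binds, was lowest in 3mTSCmKO. It was 24.1, 17.6, 21.1, 21.1 and 18.6 CPM in 3mCON against 13.5, 9.47, 14.2, 10.6 and 12.8 CPM in 3mTSCmKO. Every 3mTSCmKO value was below every 3mCON value, and Lrp4 fell 1.69-fold (log2 difference -0.76 ± 0.14, adjusted p = 8.93e-05). In 3mTSCmKO+RM it was 21.2, 16.2, 14.8, 20.6 and 18.9 CPM, all above the 3mTSCmKO values. That rise was 1.51-fold (0.60 ± 0.14, adjusted p = 0.00142). Both calls held without any single library and in each other alternative. The effect of rapamycin at 3 months was not shown to differ from that in CON (difference 0.58 ± 0.20, adjusted p = 0.101), except in the fit of only the groups compared (adjusted p = 0.0485). At 9 months Lrp4 was 16.8, 16.1, 19.2, 17.2 and 21.5 CPM in 9mCON and 17.9, 18.7, 15.5, 15.2 and 12.1 CPM in 9mTSCmKO, with overlap (-0.20 ± 0.14, adjusted p = 0.278). In the order of group means, 3mTSCmKO stood below its neighbour 9mTSCmKO (adjusted p = 0.0281), and the other 6 neighbouring pairs did not pass the test. That call was lost without 3mTSCmKO replicate 2, 9mTSCmKO replicate 1 or 9mTSCmKO replicate 2 (log2 difference 0.31 to 0.36, adjusted p = 0.0570 to 0.0928) and in 5 other alternatives, down to 0.10 with insert size as a term.

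Musk, the kinase that LRP4 activates, was highest in 9mTSCmKO. It was 5.49, 4.38, 7.55, 7.64 and 13.01 CPM in 9mCON and 15.8, 18.3, 16.3, 14.4 and 12.6 CPM in 9mTSCmKO. The groups touched only at 9mCON replicate 5, which lay above the lowest 9mTSCmKO value. Musk rose 2.02-fold (log2 difference 1.01 ± 0.27, adjusted p = 0.00302), and the difference ran from 0.87 to 1.32 over the alternatives. At 3 months it was 5.21, 8.10, 16.0, 8.75 and 4.98 CPM in 3mCON and 5.21, 4.51, 4.83, 11.9 and 7.20 CPM in 3mTSCmKO. These groups overlapped (-0.35 ± 0.27, adjusted p = 0.403), each with 1 library far above its others. The genotype effect was 1.36 ± 0.38 higher at 9 than at 3 months (adjusted p = 0.0292). That call was lost without 3mCON replicate 3, 3mTSCmKO replicate 1, 2 or 3, or 9mCON replicate 2 (1.01 to 1.29, adjusted p = 0.0501 to 0.0993), without a filter on low counts (0.0559) and with only the groups compared (0.116).

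With rapamycin at 9 months, Musk fell in TSCmKO and not in CON. It was 5.71, 9.22, 10.9, 12.7 and 8.54 CPM in 9mTSCmKO+RM, a fall of 1.64-fold from 9mTSCmKO (-0.71 ± 0.27, adjusted p = 0.0372), with 1 value just above the lowest of 9mTSCmKO. It was 8.31, 11.4, 14.0, 13.8 and 10.9 CPM in 9mCON+RM, higher on average than 9mCON but past no threshold (0.60 ± 0.27, adjusted p = 0.158). Without 9mCON replicate 5, the high library, that difference was 0.89 (adjusted p = 0.0327). The rapamycin effects differed by -1.32 ± 0.38 (adjusted p = 0.0366). The fall in 9mTSCmKO was lost without 9mTSCmKO replicate 1, 2 or 3 or 9mTSCmKO+RM replicate 1, 2 or 5 (-0.71 to -0.58, adjusted p = 0.0569 to 0.104), without a filter on low counts (0.0671) and with insert size as a term (0.0741). The difference between genotypes was lost without 9mCON replicate 1, 2, 3 or 4, 9mCON+RM replicate 3 or 4, 9mTSCmKO replicate 2 or 9mTSCmKO+RM replicate 1, 2 or 5 (adjusted p = 0.0515 to 0.0624), and in 3 other alternatives (0.0535 to 0.0691).

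At 3 months Musk was 8.41, 8.66, 10.1, 8.98 and 9.39 CPM in 3mCON+RM and 4.82, 3.19, 6.36, 5.97 and 5.04 CPM in 3mTSCmKO+RM, the lowest group of all. The groups did not overlap, and Musk was 1.79-fold lower in 3mTSCmKO+RM (-0.84 ± 0.28, adjusted p = 0.0439). That call was lost in 9 of the 10 fits without 1 library, the exception being 3mTSCmKO+RM replicate 3 (adjusted p = 0.0559 to 0.136), and in 4 other alternatives (0.0561 to 0.119). In vehicle-treated TSCmKO, Musk rose 2.26-fold from 3 to 9 months (1.18 ± 0.27, adjusted p = 0.000823), with no overlap. With insert size as a term the difference was 1.10 (adjusted p = 0.0503). None of the 7 neighbouring pairs of Musk group means passed the test.

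Dok7, the adaptor that sustains MuSK activity, was 14.3, 18.9, 16.5, 18.8 and 20.7 CPM in 9mCON, 17.6, 22.4, 29.2, 19.0 and 18.0 CPM in 9mTSCmKO and 25.6, 14.8, 16.9, 15.03 and 16.5 CPM in 9mTSCmKO+RM. The 3 groups overlapped, with replicate 3 of 9mTSCmKO and replicate 1 of 9mTSCmKO+RM above the rest of their groups. The genotype difference was 0.25 ± 0.17 (95% interval -0.10 to 0.60, adjusted p = 0.259) and the rapamycin difference in 9mTSCmKO -0.26 ± 0.17 (-0.61 to 0.09, adjusted p = 0.250). Over the alternatives the latter ran from -0.43 to -0.13, with a lowest adjusted p of 0.0533. In 9mTSCmKO+RM against 9mCON+RM the difference of -0.32 (adjusted p = 0.209) was -0.48 without 9mTSCmKO+RM replicate 1, the high library, and then passed (adjusted p = 0.0419). At 3 months Dok7 was 12.9, 14.96, 14.1, 16.7 and 17.5 CPM in 3mTSCmKO, and it rose 1.39-fold from there to 9mTSCmKO (0.48 ± 0.17, adjusted p = 0.0279). This was its one call among the planned comparisons with every library in. It was lost without 3mTSCmKO replicate 1, 3mTSCmKO replicate 3 or 9mTSCmKO replicate 3 (0.35 to 0.46, adjusted p = 0.0535 to 0.121) and in 3 other alternatives.

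Rapsn, the receptor-clustering scaffold gene, was lower in TSCmKO at both ages and with either treatment. It was 20.8, 24.5, 21.0, 25.3 and 28.6 CPM in 3mCON and 14.6, 18.0, 17.8, 16.8 and 19.6 CPM in 3mTSCmKO. It was 20.4, 30.2, 30.5, 24.7 and 24.3 CPM in 9mCON and 14.4, 16.5, 18.0, 18.2 and 16.2 CPM in 9mTSCmKO. Neither pair of groups overlapped. Rapsn fell 1.38-fold at 3 months (-0.46 ± 0.14, adjusted p = 0.0141) and 1.56-fold at 9 months (-0.64 ± 0.14, adjusted p = 0.000339). Without 3mCON replicate 5, the first was -0.39 (adjusted p = 0.0539). The genotype effect was not shown to differ between ages (-0.18 ± 0.20, adjusted p = 0.660).

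Rapamycin raised Rapsn in both genotypes at 9 months. It was 31.5, 22.6, 20.8, 21.2 and 20.001 CPM in 9mTSCmKO+RM, all above 9mTSCmKO, a 1.39-fold rise (0.48 ± 0.14, adjusted p = 0.00756). It was 48.9, 38.0, 34.2, 25.4 and 29.2 CPM in 9mCON+RM, with overlap with 9mCON, a 1.35-fold rise (0.44 ± 0.14, adjusted p = 0.0309). The effects were not shown to differ (0.04 ± 0.19, 95% interval -0.35 to 0.43, adjusted p = 0.934). The call in CON was lost without 9mCON replicate 1, 4 or 5 or 9mCON+RM replicate 1 or 2 (0.30 to 0.42, adjusted p = 0.0600 to 0.147) and with only the groups compared (0.189). In the 9mCON+RM libraries markers of fibroblasts and tendon, summed over 10 genes, were 120 to 491 TPM, against 640 to 1572 TPM in 9mCON, and 9 of those 10 genes fell. Immune markers, summed over 6 genes, were 10.97 to 35.2 TPM against 37.7 to 111 TPM, and 4 of the 5 tested fell. Of all genes 6.82% fell in this comparison. The part of these cells in the Rapsn value was not tested. Rapsn was lower in TSCmKO under rapamycin too, 1.52-fold at 9 months (-0.60 ± 0.14, adjusted p = 0.00122) and 1.36-fold at 3 months (-0.45 ± 0.14, adjusted p = 0.0305). The last was lost without replicate 1, 2 or 3 of either 3mCON+RM or 3mTSCmKO+RM (adjusted p = 0.0596 to 0.0759) and without a filter on low counts (0.0557). None of the neighbouring pairs of group means passed the test.

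The genes for acetylcholinesterase and for the collagen tail that anchors it passed the test in opposite directions with rapamycin in 9mTSCmKO. They did so too in 9mTSCmKO+RM against 9mCON+RM and in the difference of rapamycin effects between genotypes at 9 months. With loss of Tsc1 at 3 months both pointed down, and only Ache passed. Ache was 48.4, 50.8, 44.7, 57.3 and 66.8 CPM in 3mCON, 34.1, 38.1, 38.1, 27.6 and 43.7 CPM in 3mTSCmKO and 81.7, 65.5, 61.0, 60.1 and 83.3 CPM in 3mTSCmKO+RM. The 3mTSCmKO values lay below both other groups without overlap. Ache fell 1.47-fold with loss of Tsc1 (-0.56 ± 0.19, adjusted p = 0.0289) and rose 1.94-fold with rapamycin in 3mTSCmKO (0.95 ± 0.19, adjusted p = 0.000188). The fall was lost without 3mCON replicate 4, 3mCON replicate 5, 3mTSCmKO replicate 1 or 3mTSCmKO replicate 4 (-0.54 to -0.47, adjusted p = 0.0614 to 0.0951). The rise held in each alternative.

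At 9 months Ache was 50.4, 50.9, 55.1, 58.4 and 56.1 CPM in 9mCON, 19.2, 52.4, 53.2, 37.7 and 39.7 CPM in 9mTSCmKO and 103, 81.1, 83.6, 54.1 and 74.9 CPM in 9mTSCmKO+RM. Replicate 1 of 9mTSCmKO was far below its group, and all 9mTSCmKO+RM values were above all 9mTSCmKO values. The genotype difference was -0.42 ± 0.19 (adjusted p = 0.0710). Without 9mTSCmKO replicate 1 it was -0.24 (adjusted p = 0.278), and without 9mTSCmKO replicate 2 or 3 it passed (-0.53 in both fits, adjusted p = 0.0294 and 0.0317). Rapamycin raised Ache 1.96-fold in 9mTSCmKO (0.97 ± 0.19, adjusted p = 0.00011), and 0.79 was the lowest value over the alternatives, without that replicate 1.

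In CON, rapamycin gave no call for Ache. It was 57.8, 44.3, 43.9, 44.7 and 67.8 CPM in 3mCON+RM and 39.9, 35.9, 54.2, 61.8 and 49.1 CPM in 9mCON+RM, both overlapping their vehicle groups (-0.05 ± 0.19, adjusted p = 0.989, and -0.17 ± 0.19, adjusted p = 0.630). The effect of rapamycin was higher in TSCmKO than in CON by 1.002 ± 0.26 at 3 months (adjusted p = 0.0232) and by 1.14 ± 0.26 at 9 months (adjusted p = 0.0079). Without 3mCON replicate 5, the first was 0.91 (adjusted p = 0.0552). Ache was also 1.65-fold higher in 9mTSCmKO+RM than in 9mCON+RM (0.72 ± 0.19, adjusted p = 0.00418). At 3 months that difference was 0.44 ± 0.19 and did not pass (adjusted p = 0.142), except with only the groups compared (0.0375). By group mean Ache was highest in the 2 TSCmKO+RM groups, which were not shown to differ from each other (0.17, adjusted p = 0.536). Its lowest means were those of the 2 vehicle-treated TSCmKO groups (0.15, adjusted p = 0.539). Neither pair was shown to stand apart from the next group in the order. The difference was 0.38 from 3mTSCmKO+RM to 9mCON (adjusted p = 0.129) and 0.25 from 9mCON+RM to 9mTSCmKO (adjusted p = 0.282).

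At 9 months Colq ran opposite to Ache with rapamycin in TSCmKO, and with loss of Tsc1 only Colq of these 2 passed the test. It was 11.1, 10.6, 7.72, 9.22 and 10.3 CPM in 9mCON, 12.2, 18.0, 22.4, 15.5 and 11.3 CPM in 9mTSCmKO and 5.40, 5.94, 6.14, 3.86 and 5.61 CPM in 9mTSCmKO+RM. The 3 groups did not overlap, with 9mTSCmKO highest and 9mTSCmKO+RM lowest. Colq rose 1.62-fold with loss of Tsc1 (0.69 ± 0.18, adjusted p = 0.00291) and fell 2.93-fold with rapamycin in 9mTSCmKO (-1.55 ± 0.19, adjusted p = 7.76e-08). Both held in each alternative. In 9mCON+RM it was 9.12, 8.23, 14.8, 13.6 and 12.6 CPM, overlapping 9mCON (0.24 ± 0.19, adjusted p = 0.462). The rapamycin effects differed by -1.80 ± 0.27 between genotypes (adjusted p = 0.000138), a call that held in each alternative. Colq was 2.15-fold lower in 9mTSCmKO+RM than in 9mCON+RM (-1.10 ± 0.19, adjusted p = 3.7e-05).

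At 3 months Colq was 9.01, 12.6, 12.97, 11.4 and 13.3 CPM in 3mCON and 9.09, 9.54, 10.4, 8.38 and 11.2 CPM in 3mTSCmKO, with overlap (-0.28 ± 0.18, adjusted p = 0.308). The genotype effect was 0.98 ± 0.26 higher at 9 months (adjusted p = 0.0218), and without 9mTSCmKO replicate 3 the difference was 0.83 (adjusted p = 0.0544). In 3mTSCmKO+RM it was 9.74, 7.73, 3.83, 7.54 and 5.69 CPM, 1.55-fold below 3mCON+RM (-0.63 ± 0.19, adjusted p = 0.0249). That call was lost without 3mCON+RM replicate 3 or 3mTSCmKO+RM replicate 3 or 5 (-0.59 to -0.48, adjusted p = 0.0610 to 0.0995). Rapamycin in 3mTSCmKO gave -0.49 ± 0.19 (adjusted p = 0.0522), which passed without 3mTSCmKO+RM replicate 1 (-0.64, adjusted p = 0.0130), with DESeq2 (0.0432) and with insert size as a term (0.0466). In TSCmKO the effect of rapamycin at 9 months minus that at 3 months was -1.06 ± 0.27 (adjusted p = 0.0273), a comparison added after the values were seen, in which 2 of 9 members passed, both lower, against 1.91% of all genes (1.09% lower). It was lost in 5 of 20 fits without 1 library (3mTSCmKO+RM replicate 1, 2 or 4, 9mTSCmKO replicate 3 or 9mTSCmKO+RM replicate 4; adjusted p = 0.0531 to 0.0768), with limma on log2(TPM + 0.1) (0.0566) and with only the groups compared (0.0824).

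**Figure D3:**
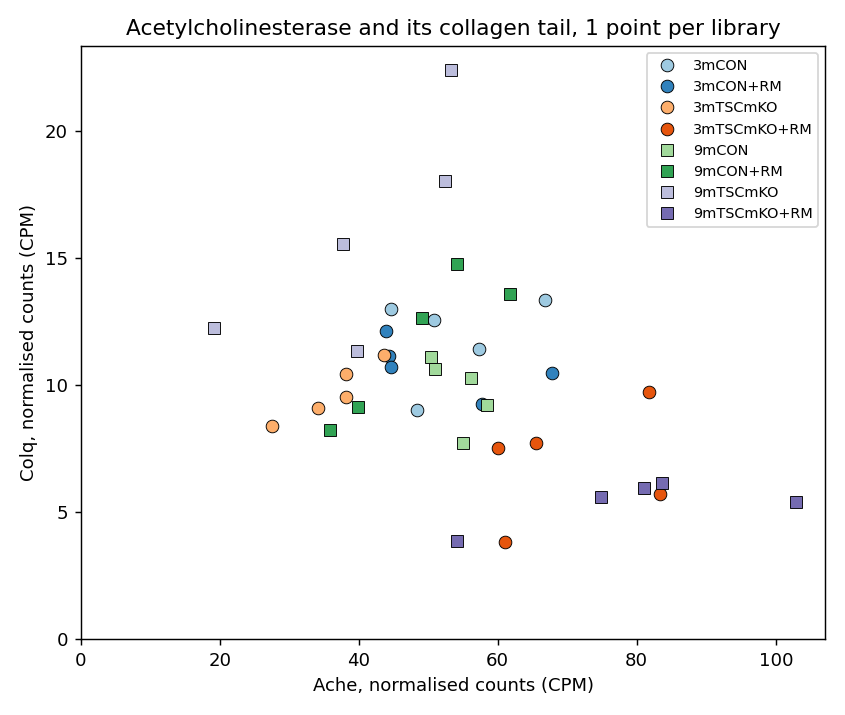
Ache (x axis) against Colq (y axis) in each of the 40 libraries, both in TMM-scaled CPM, with circles for 3 months and squares for 9 months. The 9mTSCmKO+RM libraries lie at the lower right, with Ache at 54.1 to 103 CPM and Colq at 3.86 to 6.14 CPM, and the 9mTSCmKO libraries at the upper left, with Ache at 19.2 to 53.2 CPM and Colq at 11.3 to 22.4 CPM.

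Etv5, an ETS factor gene that acts downstream of neuregulin signalling in synaptic nuclei, rose with loss of Tsc1 at 9 months. It was 17.5, 9.51, 17.3, 13.8 and 20.5 CPM in 9mCON and 29.6, 38.5, 25.5, 32.9 and 23.0 CPM in 9mTSCmKO. The groups did not overlap, and Etv5 rose 1.897-fold (0.92 ± 0.16, adjusted p = 1.33e-05). At 3 months it was 18.0, 17.7, 20.2, 19.9 and 20.3 CPM in 3mCON and 20.6, 19.8, 22.2, 20.7 and 19.6 CPM in 3mTSCmKO (0.10 ± 0.16, 95% interval -0.22 to 0.41, adjusted p = 0.725). These groups overlapped, and the genotype effect was 0.83 ± 0.22 higher at 9 months (adjusted p = 0.0233). That difference was 0.70 without 9mTSCmKO replicate 2 (adjusted p = 0.0510) and had adjusted p = 0.104 and 0.118 with limma on log2 TPM. In 9mTSCmKO+RM Etv5 was 18.2, 22.8, 25.6, 20.5 and 24.3 CPM, overlapping 9mTSCmKO, a fall of 1.34-fold (-0.42 ± 0.16, adjusted p = 0.0351). The fall was lost without 9mTSCmKO replicate 2 or 4 or 9mTSCmKO+RM replicate 1, 2 or 4 (-0.43 to -0.34, adjusted p = 0.0543 to 0.104) and in 4 other alternatives. The effect of rapamycin was not shown to differ from that in 9mCON (-0.59 ± 0.22, adjusted p = 0.114), though it passed without 9mCON+RM replicate 1 (-0.73, adjusted p = 0.0405). In vehicle-treated TSCmKO, Etv5 rose 1.45-fold from 3 to 9 months (0.54 ± 0.16, adjusted p = 0.00655), but not with insert size as a term (0.27, adjusted p = 0.429) or with limma on log2(TPM + 1) (0.36, adjusted p = 0.168) or log2(TPM + 0.1) (0.38, adjusted p = 0.191).

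Ncam1, whose product mediates adhesion between nerve and muscle, had the largest genotype difference of the 9 genes at 9 months. It was 20.4, 11.02, 14.0, 13.6 and 12.0 CPM in 9mCON and 45.7, 34.4, 39.3, 30.5 and 29.5 CPM in 9mTSCmKO. Every 9mTSCmKO value was above every 9mCON value, and Ncam1 rose 2.52-fold (1.33 ± 0.18, adjusted p = 1.92e-07). In 9mTSCmKO+RM it was 19.4, 18.1, 27.7, 23.6 and 26.8 CPM, all below 9mTSCmKO, a fall of 1.55-fold (-0.63 ± 0.18, adjusted p = 0.00556). It was still 1.47-fold higher than in 9mCON+RM, where it was 11.3, 15.4, 18.7, 16.6 and 16.5 CPM with overlap (0.56 ± 0.18, adjusted p = 0.0229). That last call was lost without 9mCON+RM replicate 1 or 9mTSCmKO+RM replicate 3 or 5 (0.46 to 0.50, adjusted p = 0.0648 to 0.0787) and with insert size as a term (0.0575). The effect of rapamycin was not shown to differ from that in 9mCON (-0.78 ± 0.25, adjusted p = 0.0658), though it passed without 9mCON replicate 1, 9mCON+RM replicate 1 or 9mTSCmKO replicate 5 (-0.94 to -0.85, adjusted p = 0.0210 to 0.0450) and with DESeq2 (0.0415).

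At 3 months Ncam1 responded to rapamycin in the other direction. It was 14.2, 11.8, 14.3, 13.5 and 13.8 CPM in 3mCON, 7.05, 11.8, 11.8, 10.97 and 10.3 CPM in 3mTSCmKO and 11.2, 17.3, 12.9, 27.7 and 18.0 CPM in 3mTSCmKO+RM. The vehicle groups lay side by side without overlap but did not pass the test (-0.38 ± 0.18, adjusted p = 0.144) except with only the groups compared (adjusted p = 0.0418), and replicate 4 of 3mTSCmKO+RM stood above its group. Rapamycin raised Ncam1 1.68-fold in 3mTSCmKO (0.75 ± 0.18, adjusted p = 0.00198), a call that held without that library and in each alternative (lowest 0.51). The genotype effect was 1.72 ± 0.26 higher at 9 than at 3 months (adjusted p = 5.21e-05), which also held in each alternative. In TSCmKO the effect of rapamycin at 9 months minus that at 3 months was -1.38 ± 0.25 (adjusted p = 0.00209), in the comparison added after the values were seen. This held in each alternative.

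Both of the next Ncam1 calls were lost without some libraries. The rapamycin effect at 3 months was higher in TSCmKO than in CON by 0.95 ± 0.26 (adjusted p = 0.0279), but not without 3mCON replicate 1, 3mCON+RM replicate 1, 3mTSCmKO replicate 1 or 3mTSCmKO+RM replicate 4 (0.72 to 0.93, adjusted p = 0.0505 to 0.101). Ncam1 was 11.04, 11.8, 10.8, 12.5 and 12.5 CPM in 3mCON+RM, 1.48-fold below 3mTSCmKO+RM (0.57 ± 0.18, adjusted p = 0.0381). That was lost in 8 of 10 fits without 1 library, all but 3mTSCmKO+RM replicates 1 and 3 (down to 0.33, adjusted p = 0.297, without replicate 4), and with only the groups compared (0.0696). In contrast, the 3.45-fold rise of Ncam1 from 3 to 9 months in vehicle-treated TSCmKO (1.79 ± 0.18, adjusted p = 2.35e-09) was lost in no fit.

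Over all 9 genes, 63 pairs of neighbours in the order of group means were compared, and 3 passed the test. These were Lrp4 in 9mTSCmKO over 3mTSCmKO, and Etv5 and Ncam1 in 9mTSCmKO over 9mTSCmKO+RM. The ratio of the highest to the lowest group mean was largest for Ncam1 (3.46), Musk (3.05) and Colq (2.95) and smallest for Agrn (1.49) and Dok7 (1.53). The group means of log2 CPM of Musk and Dok7 had r = 0.923 over the 8 groups, Musk and Agrn -0.895, Dok7 and Agrn -0.852, Ache and Colq -0.817, Etv5 and Ncam1 0.723 and Rapsn and Etv5 -0.721. These describe 8 points that share a fit, and carry no p.

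Among the 9638 genes with a mean of at least 5 CPM, the group means most like Musk were those of Riok1 (r = 0.976) and Ing2 (0.948). For Lrp4 they were Yod1 and Slc12a9 (both 0.934), for Dok7 Rps3 (0.961) and Cdk2ap1 (0.958), and for Rapsn Eif2b2 and 0610010K14Rik (both 0.989). For Agrn they were Pml (0.946) and Cog5 (0.940), for Ache Tet2 (0.959) and Plbd1 (0.950), and for Colq Tsn (0.947) and Slc25a17 (0.943). Those of Etv5 were Ugcg (0.990) and Anxa4 (0.978), and those of Ncam1 Sln (0.969) and Parl (0.968). With so many candidates over 8 points, values of this size are a description only.

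The AChR subunit genes, which encode the receptor that rapsyn clusters, were tested beside the organisers. In 9mTSCmKO against 9mCON, Chrna1 (0.47 ± 0.16), Chrnb1 (0.34 ± 0.12) and Chrnd (0.73 ± 0.20) rose. Chrna1 was 33.6, 44.1, 35.6, 35.6 and 35.1 CPM in 9mCON and 32.3, 48.1, 87.1, 44.1 and 43.4 CPM in 9mTSCmKO, and Chrnd was 7.03, 6.26, 5.60, 5.08 and 6.46 against 7.13, 10.3, 16.8, 8.66 and 7.57 CPM. Replicate 3 of 9mTSCmKO was the highest for both, and the Chrna1 groups overlapped. Without it Chrna1 differed by 0.20 (adjusted p = 0.224) and Chrnd by 0.47 (adjusted p = 0.0392). The Chrnb1 groups overlapped too, and its call was lost without 9mCON replicate 3 or 5 or 9mTSCmKO replicate 3 or 5 (0.27 to 0.33, adjusted p = 0.0516 to 0.102). The adult subunit gene Chrne fell (-0.91 ± 0.18, adjusted p = 8.35e-05). With rapamycin in 9mTSCmKO, Chrnd fell (-0.55 ± 0.20, adjusted p = 0.0293), and Chrna1, Chrnb1 and Chrne did not pass. The fall of Chrnd was lost without 9mTSCmKO replicate 3 (-0.29, adjusted p = 0.233) or 9mTSCmKO+RM replicate 2 or 3 (adjusted p = 0.0939 and 0.0591), and Chrna1 passed without 9mTSCmKO replicate 1 (-0.40, adjusted p = 0.0423). The fetal subunit gene Chrng averaged 0.120 ± 0.0884 CPM in 9mCON and 3.32 ± 2.45 CPM in 9mTSCmKO (SD, n = 5). After rapamycin, 9mTSCmKO+RM libraries averaged 0.342 ± 0.133 CPM. Chrng reached 1 CPM only in the 5 libraries of 9mTSCmKO and passed the filter on low counts through them alone, so it had to differ and no p is given.

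Of 20 genes downstream of MuSK, 6 were higher and 6 lower in 9mTSCmKO at 9 months, where 19.1% of all genes were higher and 18.9% lower (median -0.07, against -0.02 over all genes). Cttn, the cortactin gene, rose from 27.5 ± 2.77 to 48.7 ± 6.49 CPM (adjusted p = 1.35e-08) and Cdc42, a small GTPase gene, from 208 ± 11.6 to 317 ± 28.9 CPM. The kinase gene Pak1 fell from 51.9 ± 10.6 to 16.8 ± 5.58 CPM (adjusted p = 2.18e-07) and Dvl1, a Dishevelled gene, from 160 ± 11.3 to 102 ± 14.6 CPM. Rapamycin in 9mTSCmKO raised 5 of the 20 and lowered 4, where 15.8% of all genes rose and 16.8% fell (median 0.02, against -0.04 over all genes). Among them Dvl1 rose to 164 ± 26.2 CPM and Rac1, another small GTPase gene, to 253 ± 21.0 CPM, and Cdc42 fell to 189 ± 11.7 CPM and Cttn to 30.5 ± 1.61 CPM.

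Of the neuregulin and ETS pathway genes, 11 of 12 were tested (Nrg1 was not). At 9 months 3 were higher and 1 lower in 9mTSCmKO, close to the 37.9% of all genes that passed in either direction (median 0.03, against -0.02 over all genes). Dusp6, a phosphatase gene induced by ERK signalling, rose from 12.2 ± 2.04 to 19.3 ± 4.19 CPM (adjusted p = 0.00294) and the neuregulin receptor gene Erbb4 from 1.06 ± 0.552 to 2.13 ± 1.04 CPM (adjusted p = 0.0288). Etv1, a relative of Etv5, fell from 10.9 ± 2.41 to 6.09 ± 1.44 CPM (adjusted p = 0.00282). With rapamycin in 9mTSCmKO, Dusp6 fell to 10.9 ± 1.63 CPM and Erbb4 to 0.765 ± 0.319 CPM, Erbb3 rose (0.43 ± 0.17, adjusted p = 0.0470), and the other 8 did not pass, where 32.6% of all genes did (median -0.05, against -0.04). The rise of Erbb4 was lost without 9mCON replicate 1 or 5 or 9mTSCmKO replicate 2 (0.68 to 0.92, adjusted p = 0.0676 to 0.143), and that of Erbb3 without 9mTSCmKO replicate 1, 3 or 5 or 9mTSCmKO+RM replicate 2, 3 or 5 (0.32 to 0.44, adjusted p = 0.0647 to 0.173).

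Of 14 genes of the synaptic basal lamina and of cholinesterase anchors or relatives, 2 were higher and 7 lower in 9mTSCmKO at 9 months, against 19.1% and 18.9% of all genes, with a median of -0.59 against -0.02. Bche, the butyrylcholinesterase gene, rose from 14.6 ± 2.73 to 25.8 ± 9.09 CPM (adjusted p = 0.000276) and Lamb2, which encodes a synaptic laminin chain, from 130 ± 29.4 to 171 ± 24.1 CPM (adjusted p = 0.0220). Col4a4 fell from 5.14 ± 1.43 to 1.51 ± 0.750 CPM (adjusted p = 3.41e-06) and Lama5 from 65.1 ± 16.9 to 38.6 ± 3.14 CPM (adjusted p = 1.07e-05). The summed fibroblast and tendon markers were 291 to 702 TPM in 9mTSCmKO, and 7 of those 10 genes fell; their part in the lamina values was not tested. Rapamycin in 9mTSCmKO raised Lama5 (0.55 ± 0.13) and Col13a1, a collagen gene of the synapse (from 0.674 ± 0.522 to 1.37 ± 0.297 CPM), and lowered Bche (-0.62 ± 0.17), with 11 of 14 not passing, where 32.6% of all genes passed (median 0.04, against -0.04). The call of Lamb2 was lost without replicate 2 of 9mCON or 9mTSCmKO (adjusted p = 0.0797 and 0.0862), that of Col13a1 without 9mTSCmKO replicate 1, 3 or 5 or 9mTSCmKO+RM replicate 1 or 3 (0.0681 to 0.114), and the fall of Bche without 9mTSCmKO replicate 3 (-0.41, adjusted p = 0.0574).

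Of 12 dystrophin and utrophin scaffold genes, 2 were higher and 4 lower in 9mTSCmKO, against 19.1% and 18.9% of all genes (median -0.26, against -0.02). Des, the desmin gene, rose (0.49 ± 0.11, adjusted p = 0.000534) and so did the ankyrin gene Ank2 (0.38 ± 0.15, adjusted p = 0.0361). The sodium channel gene Scn4a fell (-0.98 ± 0.18, adjusted p = 4.48e-05). With rapamycin 5 rose and 1 fell, against 15.8% and 16.8% of all genes (median 0.13, against -0.04), among them Des (0.60 ± 0.11) upward and Ank2 (-0.46 ± 0.15) downward. The calls of Ank2 were lost without 9mCON replicate 1, 2 or 4 or 9mTSCmKO replicate 1, 2 or 4 (0.29 to 0.38, adjusted p = 0.0612 to 0.122) for genotype, and without replicate 1 of 9mTSCmKO or 9mTSCmKO+RM for rapamycin (adjusted p = 0.0519 and 0.0529).

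Of the 10 denervation-responsive genes, Mymk was not tested and Chrng, which entered through 9mTSCmKO alone, is left out of the counts. Of the other 8, Chrna1 among them, 5 rose and 1 fell in 9mTSCmKO, against 19.1% and 18.9% of all genes (median 0.73, against -0.02). Gadd45a, a stress-induced gene, rose from 37.7 ± 14.8 to 251 ± 46.6 CPM (adjusted p = 4.8e-10), and the transcription factor gene Runx1 from 3.28 ± 1.11 to 15.3 ± 3.47 CPM (adjusted p = 1.1e-09). Myod1, a myogenic factor gene, fell from 19.9 ± 2.08 to 13.2 ± 4.44 CPM (adjusted p = 0.0454). With rapamycin 2 of the 8 rose and 3 fell, against 15.8% and 16.8% of all genes (median -0.24, against -0.04). The myogenic factor gene Myog rose from 3.16 ± 1.46 to 7.74 ± 3.62 CPM (adjusted p = 0.00488) and the deacetylase gene Hdac4 from 54.6 ± 9.58 to 77.6 ± 7.91 CPM, while Gadd45a fell to 66.1 ± 13.9 CPM. The call of Myod1 was lost without 9mCON replicate 2, 3, 4 or 5 or 9mTSCmKO replicate 1, 2, 4 or 5 (adjusted p = 0.0502 to 0.106), and that of Hdac4 without 9mTSCmKO replicate 3 or 5 or 9mTSCmKO+RM replicate 3 (0.0519 to 0.0758).

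**Figure D4:**
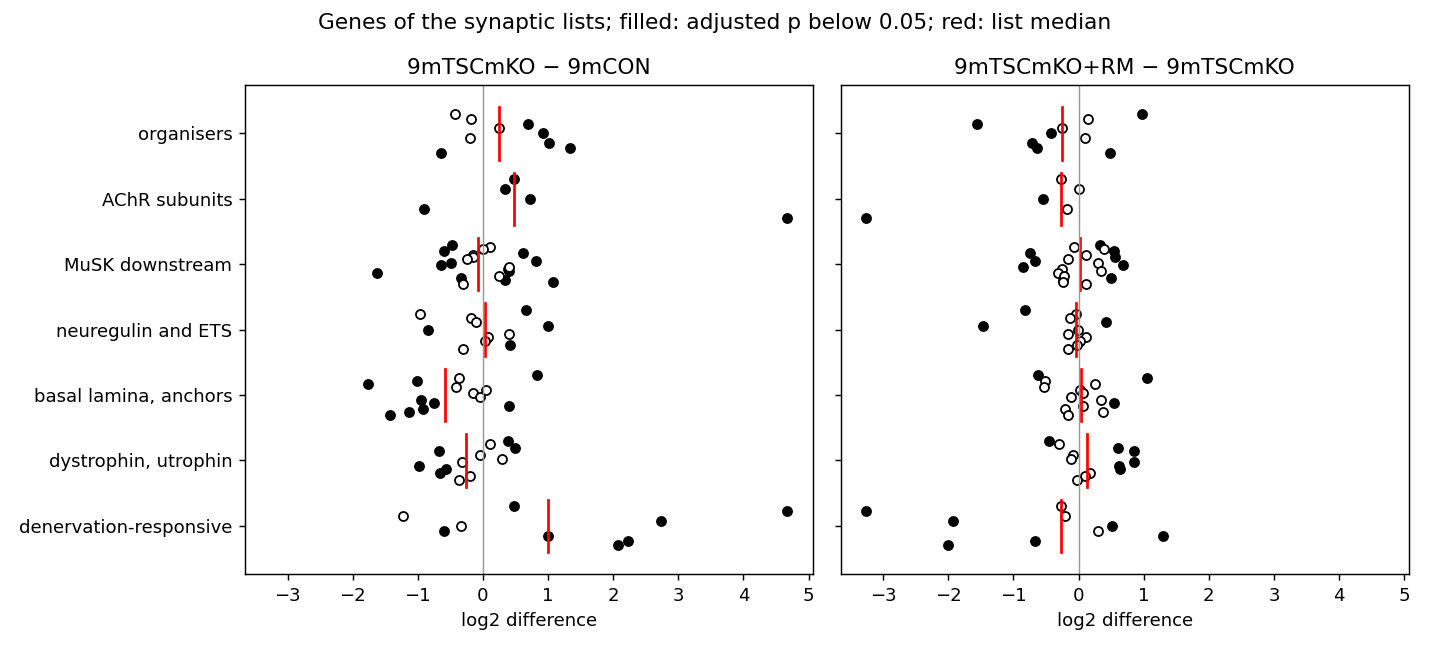
Log2 differences (x axis, the same scale in both panels) of the genes of 7 lists (y axis) in 9mTSCmKO against 9mCON and in 9mTSCmKO+RM against 9mTSCmKO, 1 point per gene, filled where the adjusted threshold was passed, with list medians in red (those of lists that hold Chrng include it). The organisers lie on both sides of 0 in both panels.

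Other cells of the muscle can carry some of these transcripts, Ncam1 in Schwann cells and satellite cells among them. The 10 Schwann cell markers summed to 169 to 324 TPM in 9mCON, 106 to 260 TPM in 9mTSCmKO and 73.7 to 165 TPM in 9mTSCmKO+RM. Of the 9 tested 0 rose and 2 fell with loss of Tsc1, where 19.1% of all genes rose and 18.9% fell. The 6 satellite cell markers summed to 20.9 to 30.9, 18.9 to 24.1 and 25.9 to 38.3 TPM in the same groups, and 0 of 6 rose or fell with loss of Tsc1. The means of both sums were lower in 9mTSCmKO (159 and 22.0 TPM) than in 9mCON (214 and 24.2 TPM). With loss of Tsc1 at 9 months 2 of 5 adipocyte markers (median -1.49) and 2 of 6 endothelial markers (median -0.20) fell and none rose. The adipocyte markers summed to 34.8 to 57.3 TPM in 9mCON and 7.89 to 25.2 TPM in 9mTSCmKO. Of 5 immune markers tested, 1 rose and 0 fell. With rapamycin in 9mTSCmKO, where Ncam1 fell, 2 of 9 Schwann cell markers fell and none rose (median -0.41), against 16.8% and 15.8% of all genes. In the same comparison 2 of 6 satellite cell markers rose, Pax7 (0.84) and Cdh15 (1.30), and none fell. With rapamycin in 3mTSCmKO, where Ncam1 rose, 1 of 6 satellite cell markers rose, Cdh15 (1.28), against 10.6% of all genes. The 6 summed to 35.98 to 47.1 TPM against 24.5 to 35.5 TPM, with Cdh15 alone at 15.8 to 26.5 against 6.46 to 9.92 TPM. There 0 of 9 Schwann cell markers and 2 of 10 fibroblast and tendon markers rose (medians 0.21 and 0.73), against the same 10.6%. In CON, where Ncam1 gave no call with rapamycin, 1 of 6 satellite cell markers also rose at each age. All genes rose there at 0.362% (3 months) and 5.03% (9 months). Cdh15 was 9.22 to 11.6 TPM in 3mCON and 14.2 to 17.4 TPM in 3mCON+RM. It was 6.73 to 13.5 TPM in 9mCON and 19.1 to 20.8 TPM in 9mCON+RM. The part of these cells in the Ncam1 values was not tested. Of the 10 fiber markers 3 rose in 9mTSCmKO (Myh7 2.79, Tnnt1 2.99 and Mb 0.75), 3 fell (Myh4 -1.03, Ckm -0.83 and Acta1 -0.39) and 4 did not pass (Myh1 0.09, Myh2 -0.76, Tnnt3 -0.28 and Pvalb -0.34). Of all genes 19.1% rose and 18.9% fell there. With rapamycin 4 of the 10 rose and 2 fell in 9mTSCmKO, against 15.8% and 16.8% of all genes. In 3mTSCmKO 4 rose and 1 fell, against 10.6% and 13%, and in CON 0 passed at either age. EDL is a fast muscle, and the fast troponin gene Tnnt3 was at 38859 TPM or more in every 9mCON library. The part of fiber type in the organisers' values was not tested.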

How the data were processed

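Poly(A) RNA of 40 EDL muscles was sequenced as directional single-end reads. The authors trimmed reads with Cutadapt, mapped them with kallisto to Ensembl transcripts (GRCm38; the study text names protein-coding ones, but the file also lists non-coding genes), split reads with several hits evenly between those transcripts and summed per gene. The deposited counts are the authors' estimated counts per gene, whole numbers in the file, and the TPM values were computed by the authors from the transcript counts, scaled by transcript length and library. No per-sample column was left unmapped.

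Genes with at least 1 CPM in at least 5 libraries were kept (13543 of 22844, at least 99.8% of each library's counts). Counts were fitted over all 8 groups with edgeR (4.0.16, R 4.3.3), using TMM scaling, its quasi-likelihood test and Benjamini-Hochberg adjustment over all genes at 0.05. Fold changes kept its default prior count, and a prior count of 2 was used for the log2 CPM values that entered correlations. Alternatives were other scalings, no filter, DESeq2 (1.42.0), limma (3.58.1) on log2(TPM + 1) and log2(TPM + 0.1), only the groups compared, insert size (39 libraries), a replicate block, and each library left out, which for genes beside the members was added after seeing the data. Likeness between genes is Pearson's r over 8 group means. Replicates were separate mice. Libraries of 8883870 to 35224669 counts limit precision for low genes most.

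The members and gene lists were chosen with earlier results of these data known. Besides the 9 members and the AChR subunits, at most 2 higher and 2 lower genes of each list, those with the smallest p in the genotype comparison at 9 months or with rapamycin in 9mTSCmKO, were named, with the 2 genes most like each member. Some genes that this rule names are not reported here.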

Additional observations from a re-analysis of the deposited data

Results flagged for a closer look

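Of 72 sets of 5 libraries (9 genes in 8 groups), 3 held a library whose gap to its nearest neighbour exceeded 0.71 of the range of the set, where chance gives about 1 in 20. Agrn was 31.7 CPM in 9mCON replicate 1, with the nearest library at 20.3. Dok7 was 25.6 CPM in 9mTSCmKO+RM replicate 1 (nearest 16.9), and Rapsn was 31.5 CPM in the same library (nearest 22.6).

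Effects that differed between groups by a test of the difference itself are listed as log2 values. The genotype effect was higher at 9 than at 3 months for Musk (1.36), Colq (0.98), Etv5 (0.83) and Ncam1 (1.72). The rapamycin effect at 9 months in TSCmKO minus that in CON was -1.32 for Musk, 1.14 for Ache and -1.80 for Colq. At 3 months it was 1.002 for Ache and 0.95 for Ncam1. The rapamycin effect in TSCmKO at 9 minus 3 months was -1.06 for Colq and -1.38 for Ncam1.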

How the results depend on the processing

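Of 117 values of the members in the planned comparisons, 41 passed the test. Of these, 20 passed under every alternative, 21 were lost under at least 1, and 14 others were gained under at least 1. No called value changed sign. The number of members called in 3mTSCmKO+RM against 3mCON+RM fell from 4 to 2 without a filter on low counts. Neighbouring pairs of groups that differed numbered 3, against 1 without that filter and 5 with DESeq2. The added comparison of rapamycin effects between ages in TSCmKO gave 2 calls, against 1 with limma on log2(TPM + 0.1) and 1 with only the groups compared. Rapamycin in 9mCON gave 1 call, against 0 with only the groups compared. Age in TSCmKO gave 6 calls, against 1 with insert size as a term. The cause of these changes was not tested.

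Leaving out 1 library at a time gave 5 to 6 calls for genotype at 9 months, 1 to 3 at 3 months, 3 to 5 at 9 months under rapamycin and 0 to 3 at 3 months under rapamycin. For rapamycin it gave 4 to 6 calls in 9mTSCmKO, 3 to 4 in 3mTSCmKO, 0 to 1 in 9mCON and 0 to 0 in 3mCON. For age it gave 5 to 6 calls in TSCmKO and 0 to 0 in CON, and for genotype by age 3 to 5. Rapamycin by genotype gave 2 to 5 calls at 9 months and 1 to 2 at 3 months, rapamycin by age in TSCmKO 1 to 2, and neighbouring pairs 1 to 6.

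Same-numbered libraries did not deviate together (mean r 0.00548, range -0.363 to 0.412, 28 of 140 pairs over 0.1, and 6 of 40 libraries closest to their own number), so the numbers do not pair the samples. With the replicate block, age in TSCmKO gave 7 calls instead of 6, Agrn being added, and genotype at 9 months gave 5. It changed no other call.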
